A study of Drosophila melanogaster with 6 samples.

Results

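Genes of the mitochondrial genome were described in RNA-seq libraries of Drosophila melanogaster with intestinal RNAi against the splicing factor 9G8. The members were the rows that the deposited files place on the mitochondrial genome (chromosome M), whose symbols all start with mt:. These were 35 of 17411 genes, namely 13 protein genes and 22 tRNA genes. The 2 mitochondrial rRNA genes were not analysed here, so the comparison of protein genes with rRNA was not made. The knockdown libraries had the genotype Mex-Gal4>9G8RNAi (9G8-RNAi; replicates A, B, D). The control libraries had the genotype Mex-Gal4>GFPdsRNA (replicates A, B, D), which expresses a double-stranded RNA against the foreign sequence GFP. Both genotypes carry Mex-Gal4, a driver of the absorptive midgut cells (enterocytes), while intestines also hold cells in which the driver is not active. Where a group has 3 values, they stand in the order A, B, D. The labels give no age or sex. They name the tissue of the 9G8-RNAi samples as intestines and that of the controls as fat body, and the design text refers to yolk-Gal4, so marker genes were checked before any comparison.

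The mitochondrial genome of animals encodes core subunits of the respiratory chain and of ATP synthase, with the rRNAs and tRNAs that translate them. Its genes have no introns, so that a nuclear splicing factor such as 9G8 does not splice them. Both strands are transcribed into long precursors in which tRNAs lie between many of the mRNAs and rRNAs, and excision of the tRNAs releases the transcripts on either side. The mature mRNAs then receive short poly(A) tails, so a library made from polyA-selected RNA contains them. Mature tRNAs are short and not typical targets of this kind of library, and counts on a tRNA gene can also come from precursors or from neighbouring transcripts that run over it.

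The libraries held 26216430 to 66562756 counts. Midgut digestive enzyme genes were abundant as a sum in all 6, with 64631 to 198188 CPM (counts-per-million) of total counts over the 7 markers. Single markers differed widely: alphaTry had 25203 to 89330 CPM, Amy-p 334 to 1379 CPM, LManII 248 to 913 CPM and Mal-A1 26.2 to 224 CPM. The 8 fat body markers summed to 507, 252 and 138 CPM in 9G8-RNAi, against 630.2, 118 and 143 CPM in control libraries, so fat body genes were detected in all 6. Of these, Lsp2, a storage protein, stood at 0.102 CPM or less, whereas the yolk protein gene Yp3 had 34.7 to 220 CPM. The lipoprotein precursor apolpp was highest in control replicate A with 82.8 CPM, as were fon with 70.6 CPM and Tep4 with 128 CPM. Lsp2, Yp1, Yp2 and Yp3 were highest in 9G8-RNAi replicate A, and Lsp1gamma in control replicate B. Their part in the results was not tested. Control replicate A differed in muscle genes: all 11 muscle markers were highest there, and together they measured 6531 CPM, against 287 to 641 CPM in the other 5 libraries. The target transcript x16, which encodes 9G8, measured 5.44, 9.76 and 7.69 CPM in 9G8-RNAi, against 13.9, 7.92 and 12.7 CPM in control libraries. These groups overlapped, and the log2 fold change was -0.53 ± 0.46 (SE; edgeR adjusted p = 0.92, n = 3 each), so a fall of the target transcript was not detectable in these libraries.

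Mitochondrial genes took a large and variable part of the counts. Their share of total counts was 18.1%, 15.02% and 12.4% in 9G8-RNAi, against 11.8%, 5.85% and 17.2003% in control libraries. Control replicate D reached the range of the 9G8-RNAi libraries and control replicate B lay far below every other library, so the groups overlapped. The means were 15.2 ± 2.84% in 9G8-RNAi and 11.6 ± 5.67% in control libraries (SD, n = 3 each), a difference of 3.58 percentage points that was smaller than the SD of the control group. It was 3.66 points without the muscle-rich control replicate A and 0.706 points without control replicate B. Counting error was small beside this spread, since the widest 95% Wilson interval of a library's share spanned 0.0278 percentage points. In bulk samples, fewer cells of a type and less RNA per cell cannot be told apart.

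**Figure D1:**
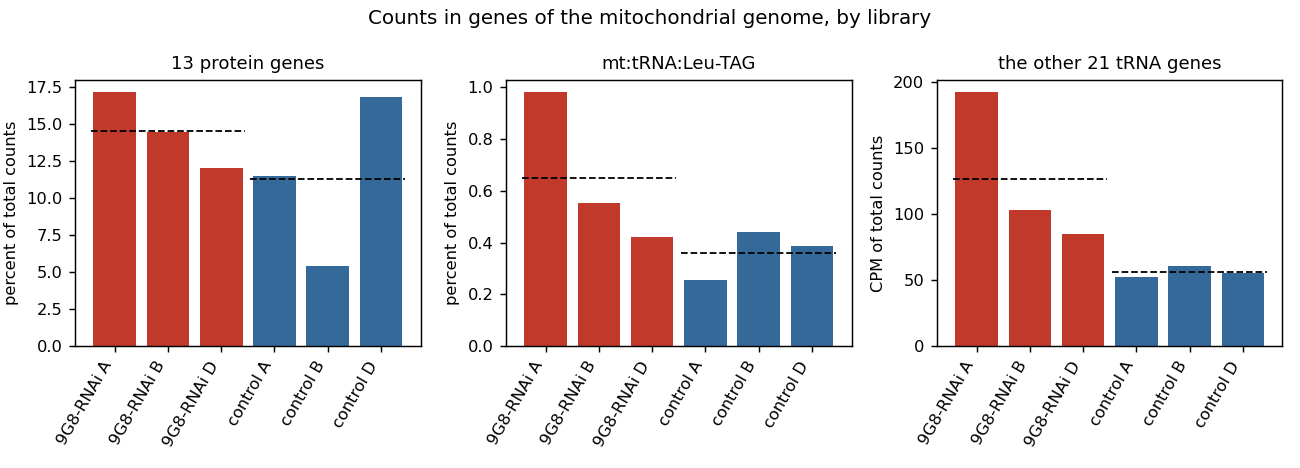
Counts in the 13 protein genes and in mt:tRNA:Leu-TAG as percent of total counts, and in the other 21 tRNA genes as CPM of total counts, for each library. Bars are single libraries and dashed lines are group means; the groups overlap for the protein genes and for mt:tRNA:Leu-TAG, while for the other tRNA genes the 9G8-RNAi libraries (85.0 to 192 CPM) lie above the control libraries (52.4 to 60.3 CPM).

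Protein genes held nearly all of it, with 92.4% to 97.8% of the mitochondrial counts. Their share of total counts was 17.1%, 14.46% and 12.01% in 9G8-RNAi, against 11.5%, 5.41% and 16.8% in control libraries. The tRNA genes together took 1.00%, 0.562% and 0.429% in 9G8-RNAi, against 0.262%, 0.447% and 0.392% in control libraries, and a single gene, mt:tRNA:Leu-TAG, made up at least 98.0% of these tRNA counts in every library.

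Subunits of complex IV, cytochrome c oxidase, were the most counted. mt:CoIII (M from 4736 to 5524, plus strand) measured 34425, 31203 and 25932 CPM of total counts in 9G8-RNAi, against 23852, 9193 and 41221 CPM in control libraries. mt:CoI, which carries the catalytic haem and copper centre (M from 1474 to 3009, plus strand), measured 20172, 24302 and 20699 CPM in 9G8-RNAi, against 29839, 6367 and 29772 CPM in control libraries. Control replicates A and D thus exceeded every 9G8-RNAi library for mt:CoI, while control replicate B had less than any other. mt:CoII (M from 3083 to 3767, plus strand), which accepts electrons from cytochrome c, measured 30742, 19573 and 16837 CPM in 9G8-RNAi, against 12471, 14258 and 20519 CPM in control libraries. Here control replicate B was not the lowest library, unlike for mt:CoI and mt:CoIII.

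Cytochrome b of complex III, mt:Cyt-b (M from 10498 to 11634, plus strand), measured 23713, 25297 and 19449 CPM in 9G8-RNAi, against 18846, 5010 and 31792 CPM in control libraries. For ATP synthase, mt:ATPase6, a part of the proton channel (M from 4062 to 4736, plus strand), measured 17182, 12960 and 10850 CPM in 9G8-RNAi, against 8284, 5864 and 11739 CPM in control libraries. Control replicate D lay at the top of its group for both and above 9G8-RNAi replicate D. The small subunit gene mt:ATPase8 (M from 3907 to 4068, plus strand) measured 136, 102 and 91.6 CPM in 9G8-RNAi, against 65.2, 18.5 and 105 CPM in control libraries.

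Complex I, the NADH dehydrogenase, has 7 mitochondrial subunit genes, whose counts spanned a wide range. The membrane subunit mt:ND1 (M from 11720 to 12658, minus strand) measured 15183, 9119 and 7867 CPM in 9G8-RNAi, against 6259, 4901 and 8650 CPM in control libraries. mt:ND4 (M from 8206 to 9544, minus strand), of the proton-pumping arm, measured 12033, 9011 and 7575 CPM in 9G8-RNAi, against 5810, 3180 and 9326 CPM in control libraries. Control replicate D exceeded 9G8-RNAi replicate D for both genes. mt:ND5 (M from 6402 to 8124, minus strand), another subunit of that arm, measured 7818, 8915 and 7044 CPM in 9G8-RNAi, against 6459, 1514 and 10638 CPM in control libraries. mt:ND2 (M from 240 to 1265, plus strand), of the same arm, measured 2918, 1646 and 1504 CPM in 9G8-RNAi, against 1315, 941 and 1727 CPM in control libraries. Both genes were lowest in control replicate B, and the groups overlapped again.

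The subunit genes mt:ND3 and mt:ND6 ran differently from these. mt:ND3 (M from 5608 to 5961, plus strand) measured 5038, 1620 and 1436 CPM in 9G8-RNAi, against 1140, 2178 and 1768 CPM in control libraries. mt:ND6 (M from 9970 to 10494, plus strand) measured 830, 210 and 173 CPM in 9G8-RNAi, against 109, 402 and 189 CPM in control libraries. For both, 9G8-RNAi replicate A was highest and control replicate B second, and control replicate A was lowest. mt:ND4L (M from 9544 to 9834, minus strand) measured 847, 620 and 594 CPM in 9G8-RNAi, against 508, 245 and 640 CPM in control libraries. Over the 13 protein genes, 10 were lowest in control replicate B and 3 in control replicate A, while 9 were highest in 9G8-RNAi replicate A, 3 in control replicate D and 1, mt:CoI, in control replicate A.

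**Figure D2:**
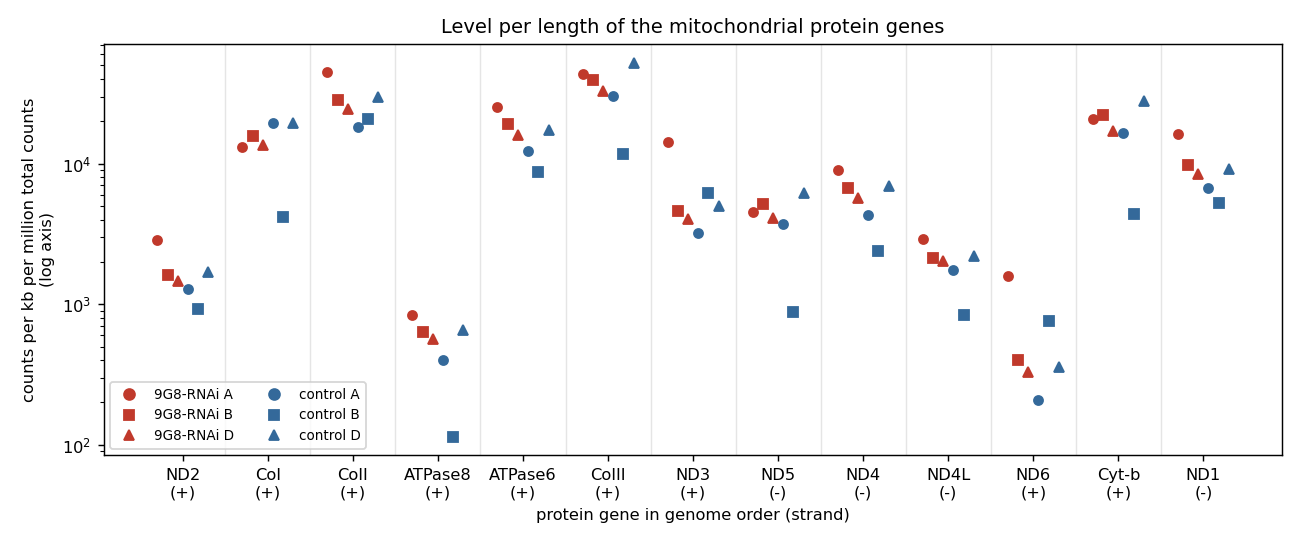
Level of each protein gene per length (CPM of total counts per kb of gene length, log axis) in the 6 libraries, in genome order with the strand below the name. Genes of the same strand differ widely, with 114 to 837 for ATPase8 and 11652 to 52245 for CoIII, and control replicate B lies lowest for 10 of the 13 genes.

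Levels per length could be compared between genes. On CPM of total counts per kb, the highest mean over the 6 libraries was 35029 for mt:CoIII, followed by mt:CoII with 27835, mt:Cyt-b with 18192, mt:ATPase6 with 16513 and mt:CoI with 14231. mt:CoIII or mt:CoII ranked first in every library. The order of the next genes depended on the library: mt:CoI ranked from 2 (control replicate A) to 7 (9G8-RNAi replicate A and control replicate B), and mt:Cyt-b from 3 to 6. mt:ND2, mt:ND6 and mt:ATPase8 had means of 1633, 607 and 534. In this measure mt:ND4L reached 0.316 to 0.402 times the level of mt:ND4 in the 6 libraries. mt:ATPase8 reached 0.0132 to 0.0374 times that of mt:ATPase6. In each of these pairs the genes share bases on the same strand, 1 base for mt:ND4 with mt:ND4L and 7 bases for mt:ATPase8 with mt:ATPase6, and how reads that touch both were counted is not given. Over the 13 protein genes, the Spearman correlation of length with level per length ran from 0.13 (control replicate B) to 0.46 (control replicate A). The part that length and overlap have in the low values of mt:ND4L and mt:ATPase8 was not tested.

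The make-up of the protein gene counts was then examined, because it does not depend on how nuclear genes scale the libraries. Subunits of complex IV took 49.9%, 51.9% and 52.9% of mitochondrial protein gene counts in 9G8-RNAi, against 57.6%, 55.1% and 54.4% in control libraries, so that the groups did not overlap. The 4 genes of the minus strand, mt:ND1, mt:ND4, mt:ND4L and mt:ND5, took 20.98%, 19.1% and 19.2% in 9G8-RNAi, against 16.56%, 18.2% and 17.4% in control libraries, again without overlap. Both groupings were read off after the values were seen and are given as descriptions, with differences between group means of -4.15 and 2.39 percentage points. The shares of complex I, complex III and complex V overlapped between groups.

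Of the 13 single shares, 2 did not overlap between groups, both higher in 9G8-RNAi. mt:ND4 took 7.04%, 6.23% and 6.31% in 9G8-RNAi, against 5.05%, 5.88% and 5.55% in control libraries. mt:ATPase8 took 0.0793%, 0.0709% and 0.0763% in 9G8-RNAi, against 0.0567%, 0.0343% and 0.0628% in control libraries. For each the exact two-sided permutation p was 0.1, the smallest that 3 against 3 libraries can give, and the other 11 shares had an exact p of 0.3 or more. Per mitochondrial protein gene count, the scale of these shares, 0.571% of all tested genes were higher in 9G8-RNAi without overlap. On the different scale of CPM of total counts, 4.08% did not overlap in either direction. Nearly all tested genes are nuclear and no part of the protein gene count, so the 0.571% is not a like baseline for the shares. That count was 5.41% of total counts in control replicate B and 11.5% to 17.1% in the others. Dividing by it raises nuclear genes in control replicate B.

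Shares of single genes also varied widely within each group. The share of mt:CoI was 11.8%, 16.8% and 17.24% in 9G8-RNAi, against 25.96%, 11.8% and 17.7% in control libraries. The share of mt:CoII was 17.97%, 13.5% and 14.02% in 9G8-RNAi, against 10.8%, 26.4% and 12.2% in control libraries. Per length, mt:CoI stood at 0.293, 0.554 and 0.548 times mt:CoII in 9G8-RNAi, against 1.07, 0.199 and 0.647 times in control libraries, a 5.36-fold range with both ends in the control group. For mt:ND6 over mt:Cyt-b, which lie next to each other on the plus strand, the ratio per length was 0.0758, 0.0180 and 0.0192 in 9G8-RNAi, against 0.0126, 0.174 and 0.0129 in control libraries, a 13.8-fold range.

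As a distance between libraries, the percent of protein gene counts that would have to move to another gene was taken. It was 1.60% between 9G8-RNAi replicates B and D, the closest pair, and 5.42% from control replicate D to 9G8-RNAi replicate B. 9G8-RNAi replicate A lay at 10.6% and 11.7% from the other libraries of its group and at 10.8% from control replicate B. Control replicate B lay at 27.9% from control replicate A and 26.7% from control replicate D, the widest distances of all. The mean gene length weighted by mitochondrial protein counts was 977, 1047 and 1043 bases in 9G8-RNAi, against 1104, 924 and 1059 bases in control libraries. The same mean over nuclear counts was 1384, 1273 and 1580 bases in 9G8-RNAi, against 2315, 1613 and 1236 bases in control libraries, and its part in the make-up was not tested.

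**Figure D3:**
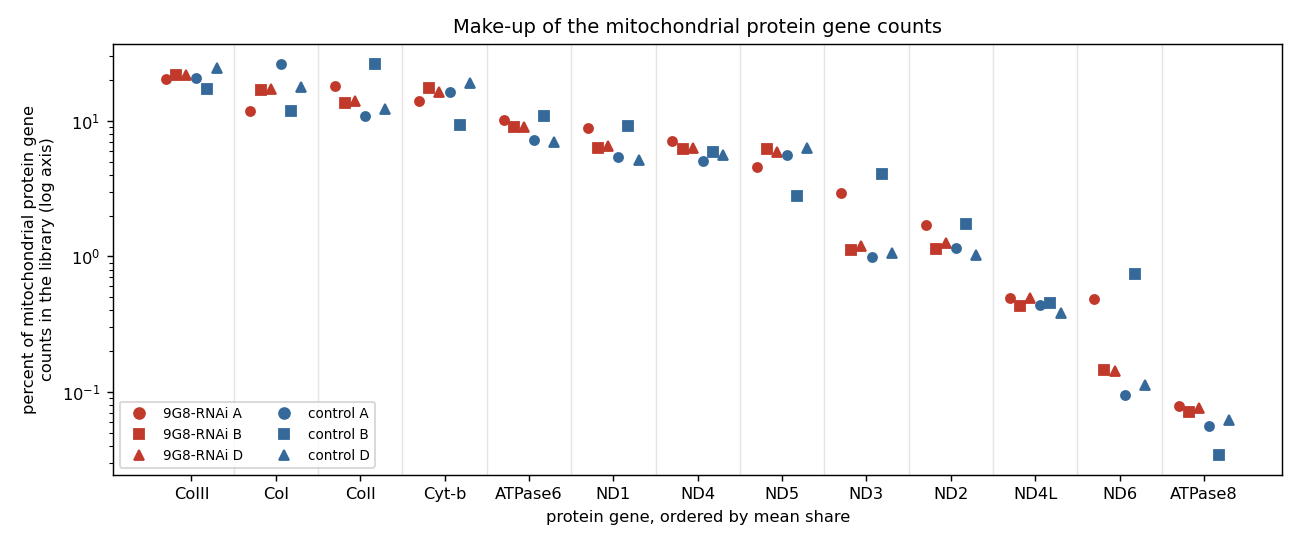
Share of each protein gene among the mitochondrial protein gene counts of a library (percent, log axis), ordered by mean share. 9G8-RNAi replicate A and control replicate B lie together above the other 4 libraries for ND3 (2.95% and 4.03%) and ND6 (0.485% and 0.743%), while the groups separate for ND4 and ATPase8.

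The tRNA gene mt:tRNA:Leu-TAG (M from 12669 to 12733, minus strand, 65 bases) stood apart from all other tRNA genes. It measured 9804, 5517 and 4201 CPM of total counts in 9G8-RNAi, against 2569, 4412 and 3861 CPM in control libraries. Control replicate B lay above 9G8-RNAi replicate D, so the groups overlapped. Per length its mean over the 6 libraries, 77857 on the scale used for the protein genes, was above that of every protein gene, and in single libraries it stood at 1.14 to 5.83 times mt:CoIII and 5.93 to 13.005 times its neighbour mt:ND1. In the annotation, the large rRNA gene lies in the interval of 1324 bases between mt:tRNA:Leu-TAG and mt:tRNA:Val-TAC on the same strand. That gene was not analysed here, and whether reads from it were counted on mt:tRNA:Leu-TAG was not tested.

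The other 21 tRNA genes were counted at low levels, with 0 to 1611 counts each in a library. Together they measured 192, 103 and 85.0 CPM of total counts in 9G8-RNAi, against 52.4, 60.3 and 55.4 CPM in control libraries. In CPM of total counts the groups did not overlap, with means of 127 ± 57.2 CPM in 9G8-RNAi, against 56.0 ± 3.99 CPM in control libraries (SD, n = 3 each), whereas with TMM scaling (a library factor from the bulk of genes) the values were 225, 122 and 72.9 CPM in 9G8-RNAi, against 31.2, 54.4 and 87.2 CPM in control libraries, which overlapped. As CPM of mitochondrial protein gene counts, in place of total counts, they were 1121, 712 and 708 in 9G8-RNAi, against 456, 1115 and 329 in control libraries, also with overlap, through control replicate B.

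Gene by gene, 11 of the 22 tRNA genes had higher CPM of total counts in each 9G8-RNAi library than in any control library, and 0 had the reverse. Among all tested genes 2.5% had such a higher value without overlap, and 1.92% of those with a mean of 1 to 20 CPM. The means of the 11 genes ran from 0.124 to 23.5 CPM, so some of them lay outside that range. The 22 genes are not independent of each other, since they are cut from a few shared precursors. With TMM scaling 6 of the 22 did not overlap, and 5 of the 17 that passed the low-count filter, against 4.81% of tested genes. Per mitochondrial protein gene count 5 of the 22 did not overlap, against 0.571% of tested genes on that scale. Those tested genes are nearly all nuclear, so the 0.571% is not a like baseline for mitochondrial genes. The percents cover only genes past the filter, whereas the 22 include 5 below it. mt:tRNA:Thr-TGT, which is among the 11, is such a gene. In CPM of total counts the number was 12 without the muscle-rich control replicate A, where 16.9% of tested genes did not overlap. It was 16 without control replicate B, against 4.30% of tested genes, and 11 without control replicate D, against 3.35%. Leaving out a 9G8-RNAi library gave 11 to 15 of the 22, against 3.09% to 5.49% of tested genes.

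After mt:tRNA:Leu-TAG, the tRNA genes with the highest mean CPM were mt:tRNA:Ala-TGC, mt:tRNA:Val-TAC and mt:tRNA:Tyr-GTA, and mt:tRNA:Ser-GCT, the next, is added after its values were seen; each carries the amino acid in its name to the mitochondrial ribosome. mt:tRNA:Ala-TGC (M from 5981 to 6045, plus strand) measured 54.8, 25.04 and 22.99 CPM of total counts in 9G8-RNAi, against 5.72, 21.96 and 10.8 CPM in control libraries. mt:tRNA:Val-TAC (M from 14058 to 14130, minus strand), between the rRNA genes in the annotation, measured 37.9, 31.8 and 19.3 CPM in 9G8-RNAi, against 11.8, 2.95 and 15.2 CPM in control libraries. The groups of both genes did not overlap in this scale and did overlap with TMM scaling. mt:tRNA:Ser-GCT (M from 6184 to 6251, plus strand) measured 20.97, 4.95 and 4.67 CPM in 9G8-RNAi, against 1.64, 6.72 and 2.88 CPM in control libraries, highest in 9G8-RNAi replicate A and then control replicate B, as for the nearby mt:ND3. mt:tRNA:Tyr-GTA (M from 1403 to 1468, minus strand), 5 bases from the start of mt:CoI on the opposite strand, measured 16.2, 10.97 and 12.3 CPM in 9G8-RNAi, against 21.8, 6.32 and 13.3 CPM in control libraries. Control replicate A was highest and control replicate B lowest here, as for mt:CoI, and without a stated strand setting reads of the 2 strands cannot be told apart.

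Of the other tRNA genes whose groups did not overlap in CPM of total counts, mt:tRNA:Asn-GTT ranged from 1.07 to 15.6 CPM over the 6 libraries, mt:tRNA:Cys-GCA from 2.02 to 10.03 CPM and mt:tRNA:Pro-TGG from 0.229 to 1.19 CPM. For mt:tRNA:Cys-GCA the groups nearly touched, with 5.83 CPM (251 counts) in 9G8-RNAi replicate B and 5.75 CPM (273 counts) in control replicate B. Groups overlapped for mt:tRNA:Ile-GAT, which ranged from 1.38 to 7.68 CPM, mt:tRNA:Arg-TCG, from 0.610 to 5.10 CPM, mt:tRNA:Gln-TTG, from 0.381 to 2.38 CPM, and mt:tRNA:Met-CAT, from 0.153 to 0.578 CPM. All 7 were highest in 9G8-RNAi replicate A.

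The lowest group, mt:tRNA:Glu-TTC, mt:tRNA:Phe-GAA, mt:tRNA:His-GTG, mt:tRNA:Thr-TGT and mt:tRNA:Ser-TGA, had 0 to 11 counts in a library. mt:tRNA:Phe-GAA had 0 counts in 4 of the 6 libraries, which allows up to 3 counts, or 0.0451 to 0.114 CPM of total counts in them, for counting error alone.

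**Figure D4:**
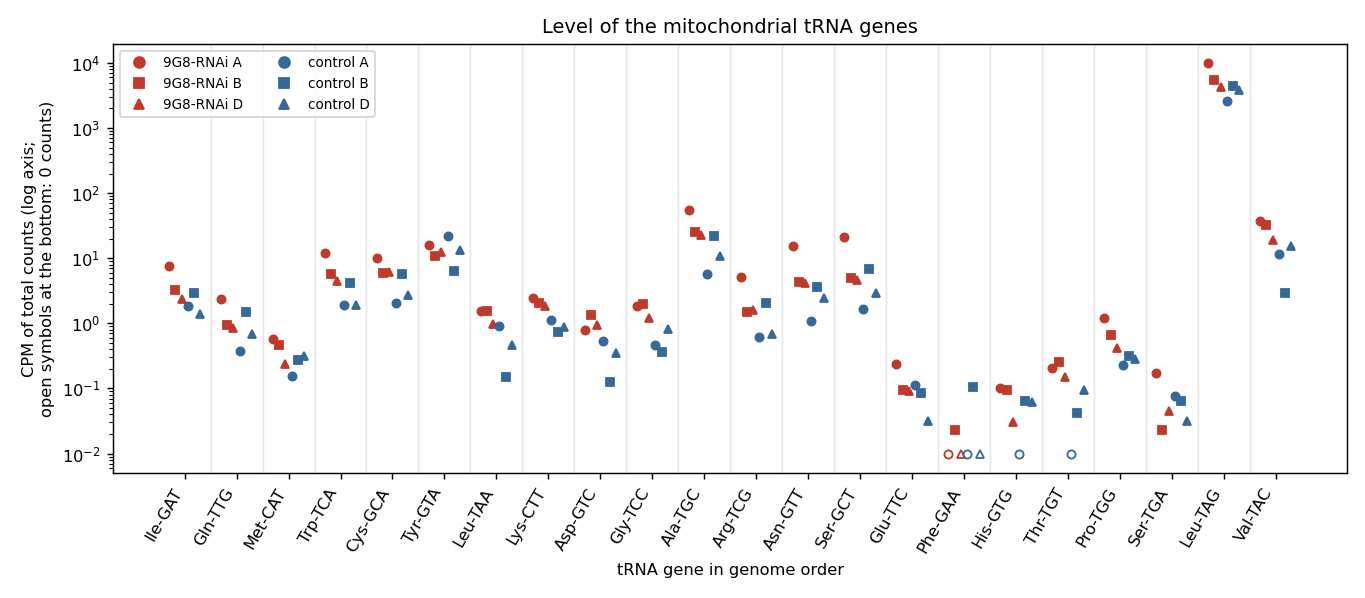
CPM of total counts (log axis) of the 22 tRNA genes in genome order, for the 6 libraries; open symbols at the bottom mark 0 counts. Leu-TAG, at 2569 to 9804 CPM, lies far above the others, and 11 genes show all 9G8-RNAi libraries above all control libraries on this scale.

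Whether single mitochondrial genes differed between 9G8-RNAi and control was tested in a fit across all genes. In edgeR's quasi-likelihood test with TMM scaling and Benjamini-Hochberg adjustment, 0 of the 30 mitochondrial genes that passed the low-count filter had an adjusted p under 0.05, with 5 at an unadjusted p under 0.05, all 5 higher in 9G8-RNAi. DESeq2 also called 0, with 10 at an unadjusted p under 0.05, beside 6.21% of all genes it tested, and limma-voom called 0, with 8, beside 3.91%. Among the 9285 genes tested by edgeR, 0.118% passed the adjusted threshold, 0.0862% as higher in 9G8-RNAi, and 4.53% had an unadjusted p under 0.05, of which those higher in 9G8-RNAi were 2.75% of the genes tested. The number at an unadjusted p under 0.05 in edgeR depended on single libraries. It is given here with the percent of all genes tested under 0.05 in brackets. It was 1 without 9G8-RNAi replicate A (2.64%), 2 without 9G8-RNAi replicate B (2.68%) and 10 without 9G8-RNAi replicate D (5.70%). Among controls it was 4 without replicate A (6.62%), 1 without replicate B (4.94%) and 16 without replicate D (10.2%). All 13 protein genes and 17 of 22 tRNA genes entered the fit.

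Over all genes tested, the median log2 fold change was -0.07 and 44.3% were above 0. Those of the protein genes ran from -0.01 for mt:CoI to 0.92 for mt:ND6, with 12 above 0, 1 below 0 and a median of 0.57. Their SEs ran from 0.62 to 0.88 and their edgeR adjusted p from 0.92 to 1.00. mt:ND6 averaged 456 ± 450 TMM-scaled CPM in 9G8-RNAi and 242 ± 156 in control libraries (SD, n = 3 each), and its log2 fold change was 0.92 ± 0.83 (SE). For mt:CoIII, the means were 33126 ± 9594 TMM-scaled CPM in 9G8-RNAi and 29137 ± 31117 in control libraries, with a log2 fold change of 0.19 ± 0.84 (SE). The median of the protein genes was 0.20 without control replicate A, 0.18 without control replicate B, 1.61 without control replicate D and 0.15 without 9G8-RNAi replicate A, so its size hung on single libraries. The sign of mt:CoI, mt:CoIII, mt:Cyt-b, mt:ND3, mt:ND5 and mt:ND6 turned with at least 1 library left out.

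The 17 tRNA genes in the fit ran from 0.11 for mt:tRNA:Tyr-GTA to 1.81 for mt:tRNA:Asp-GTC, with a median of 1.49. Their SEs ran from 0.45 to 0.88. The 5 genes with an unadjusted p under 0.05 in edgeR were mt:tRNA:Lys-CTT, mt:tRNA:Asp-GTC, mt:tRNA:Trp-TCA, mt:tRNA:Leu-TAA and mt:tRNA:Gly-TCC. mt:tRNA:Lys-CTT, which had the smallest, measured 2.45, 2.02 and 1.83 CPM of total counts in 9G8-RNAi, against 1.14, 0.737 and 0.878 CPM in control libraries. Its log2 fold change was 1.34 ± 0.45 (SE), and its edgeR adjusted p was 0.87. These 5 genes lie on the plus strand between mt:ND2 and mt:ND3, at 0.674 to 5.08 CPM of total counts on average over the 6 libraries. For mt:tRNA:Leu-TAG the log2 fold change was 0.90 ± 0.68 (SE; edgeR adjusted p = 0.92). The median of the tRNA genes was 0.79 without 9G8-RNAi replicate A.

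**Figure D5:**
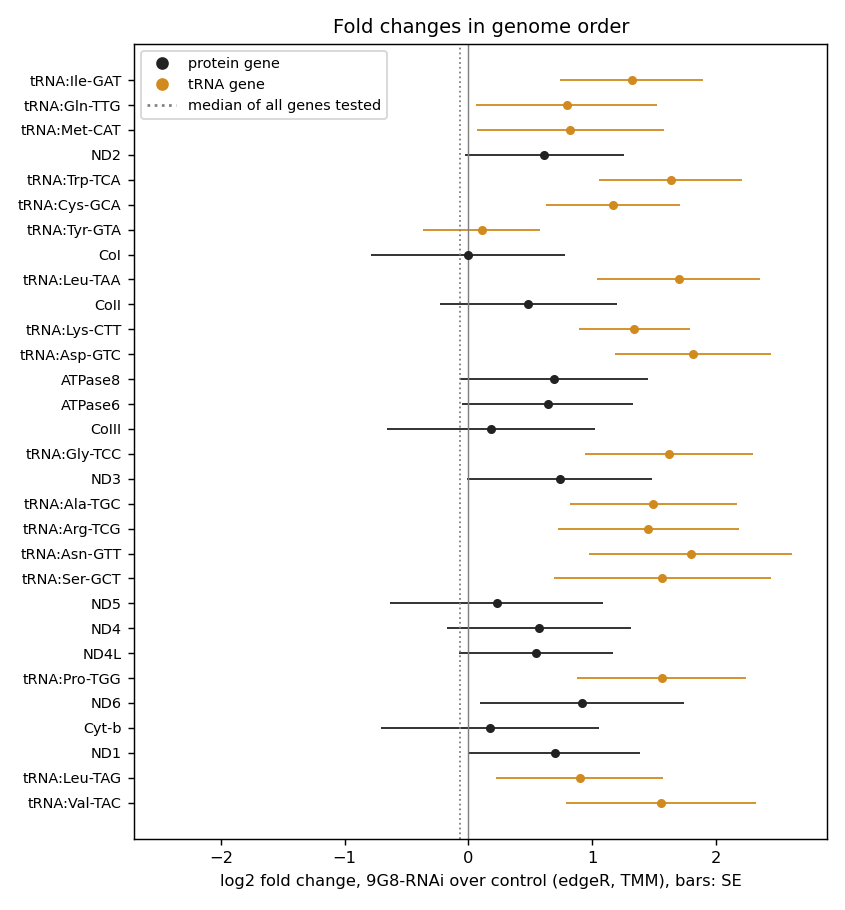
Log2 fold changes of the 30 mitochondrial genes in the edgeR fit, in genome order from top to bottom, with bars for the SE. Protein genes (black) centre on 0.57 and tRNA genes (orange) on 1.49; the dotted line marks the median of all genes tested (-0.07), and 0 of the 30 passed the adjusted threshold.

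Respiratory complexes combine mitochondrial with nuclear subunits, so nuclear genes of the same complexes were set beside these values. Nuclear oxidative phosphorylation genes, 69 in all, summed to 41438, 25390 and 26266 CPM of total counts in 9G8-RNAi, against 22924, 31142 and 26234 CPM in control libraries. Mitochondrial protein genes reached 4.13, 5.69 and 4.57 times this sum in 9G8-RNAi, against 5.01, 1.74 and 6.41 times in control libraries. Control replicate B was thus the second highest library for the nuclear subunits and the lowest for the mitochondrial ones. Of the 66 nuclear subunit genes tested, 0 passed the threshold in either direction. Their log2 fold changes had a median of 0.25, with 53 above 0 and 13 below 0, beside 44.3% above 0 over all genes tested. By complex the medians were 0.25 for complex I, -0.04 for complex II, 0.28 for complex III, 0.36 for complex IV and 0.22 for complex V. Without control replicate A or without 9G8-RNAi replicate A, the medians of complexes III and IV were below 0, with -0.03 and -0.10 for complex IV. In complex IV, levy and COX5A, with most counts, averaged 2007 ± 993 and 1949 ± 521 CPM in 9G8-RNAi, against 1503 ± 551 and 1543 ± 478 CPM in control libraries (SD, n = 3 each).

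Nuclear genes that replicate, transcribe and process the mitochondrial genome also gave 0 passes in either direction. For mtDNA replication and packaging 4 genes were tested, with a median log2 fold change of -0.03, and TFAM, which packages the DNA, averaged 51.9 ± 19.2 CPM of total counts in 9G8-RNAi, against 44.4 ± 6.83 CPM in control libraries (SD, n = 3 each). Of 5 genes for mitochondrial transcription, with a median of 0.09, mtRNApol, the RNA polymerase, averaged 7.501 ± 3.33 CPM in 9G8-RNAi, against 9.31 ± 4.49 CPM in control libraries. Among 9 genes for RNA processing and stability, with a median of 0.21, scu, a subunit of mitochondrial RNase P, averaged 335 ± 59.4 CPM in 9G8-RNAi, against 238 ± 78.5 CPM in control libraries. The poly(A) polymerase MTPAP averaged 8.46 ± 2.47 CPM in 9G8-RNAi, against 9.25 ± 1.49 CPM in control libraries. For the 15 mitochondrial aminoacyl-tRNA synthetases, which load tRNAs with amino acids, the median was -0.01.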

How the data were processed

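RNA was polyA-selected, per the labels' protocols. The authors deposited unnormalized counts of reads for each gene, 1 file to a library. Trimmomatic 0.36, STAR 2.5.2b and featureCounts of Subread 1.5.2 were used with the build BDGP6, per the submitters' processing notes, and their settings, the strand setting and the treatment of reads that touch several genes are not stated there (not given in the sources used here). Names came from the Ensembl annotation in the reference, which held all 35 mitochondrial genes; the start was the same for 18 of 35 and differed by up to 7 bases for the others, and coordinates are those of the files.

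Levels are CPM of total counts unless TMM scaling is named. edgeR 4.0.16 (R 4.3.3) with filterByExpr, TMM and the robust quasi-likelihood test was fitted on all genes, with log2 fold changes as 9G8-RNAi over control and a threshold of 0.05. On counts simulated for this comparison over 9065 genes, it recovered 0, 35.8% and 76.6% of the genes changed 2-, 4- and 8-fold and called 0.0451% of the unchanged genes. Sums over members are given without a test. Shares of single genes were compared by exact permutation (Python 3.11.15). Protein genes and the 4 tRNA genes of highest mean CPM were named with a value in each library and the other tRNA genes by ranges or counts; nuclear lists are shown by their members with most counts. Members and lists were chosen with earlier results of these data known. Alternatives were other scalings and filters, DESeq2 1.42.0, limma-voom (limma 3.58.1), a replicate block and leaving out each library. Nothing in the labels says that replicates came from separate flies, so p-values measure the spread between these libraries. The closest pair of libraries differed far beyond sampling noise (chi-square per degree of freedom of 245.6). By this measure that pair crossed the groups, joining control replicate D to replicate B of 9G8-RNAi. Within a group the smallest value was 294.9, for replicates B and D of 9G8-RNAi.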

Additional observations from a re-analysis of the deposited data

How the results depend on the processing

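The number of mitochondrial genes past the threshold was 0 under every alternative run. Over all genes, 11 passed, against 17 with total counts only, 50 with no low-count filter, 104 with DESeq2, 2 with limma-voom and 0 with the replicate block, and from 0 to 11 without single libraries. The replicate letters are not said to pair libraries, and same-letter libraries had correlations of deviations from -0.46 to -0.02; with the replicate block mt:CoI was at 0.44. The rRNA comparisons planned, the ratio of the rRNAs and the share without them, were not run.

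Without single libraries, the difference in mitochondrial share ran from 0.706 to 6.38 percentage points. The median log2 fold change ran from 0.15 to 1.61 for protein genes and from 0.79 to 1.81 for tRNA genes, and that of x16 from -0.86 to 0.18. The tRNA share difference of 0.296 points was 0.00706 points without mt:tRNA:Leu-TAG, which holds nearly all of its counts, a setting added after seeing the data. With all libraries mt:CoI was at -0.01, and it was 0.029 with upper-quartile factors, 0.010 with no low-count filter and 0.36 with limma-voom; mt:tRNA:Tyr-GTA was at -0.063 with total counts only. Log2 fold changes ran, without single libraries, from -0.49 to 1.09 for mt:CoI, -0.29 to 1.65 for mt:CoIII, -0.34 to 1.75 for mt:Cyt-b, -0.20 to 1.26 for mt:ND3, -0.29 to 1.82 for mt:ND5, -0.28 to 1.34 for mt:ND6 and -0.27 to 0.69 for mt:tRNA:Tyr-GTA. Differences in share of mitochondrial protein counts, in percentage points, ran without single libraries from -1.53 to 2.23 for mt:CoIII, -6.55 to 0.538 for mt:CoI, -4.11 to 3.65 for mt:CoII, -1.80 to 3.02 for mt:Cyt-b, -0.121 to 1.95 for mt:ND1, -0.439 to 1.33 for mt:ND5, -0.866 to 0.732 for mt:ND3, -0.108 to 0.280 for mt:ND2 and -0.172 to 0.155 for mt:ND6. Without mt:CoIII, mt:CoI and mt:CoII, the 3 genes of highest mean share, in the denominator, they were -0.785 for mt:Cyt-b and -0.132 for mt:ND2. The cause of these changes was not tested.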
